A study of Mus musculus with 2 samples.

Results

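Gpnmb and 9 further genes linked to scar-associated macrophages of fibrotic liver, not all of them specific to these cells, were followed in the RNA-seq data from primary mouse hepatocytes. The 10 genes (Gpnmb, Trem2, Tyrobp, Cd9, Cd63, Spp1, Fabp5, Lgals3, Lpl and Mitf) were taken by symbol from 20313 mRNA genes, and all 10 had a value in both libraries. Gpnmb was chosen by its very large difference between these libraries and the others were named with results of these data known, so the values of all 10 are given as a description without a test. Hepatocytes came from wild-type male C57BL/6J mice, 1 library from animals that received oil and 1 library from animals that received CCl4 in mineral oil (20% solution, 2.5 ml CCl4 per kilogram, 2 injections a week). The methods give 4 weeks of injection and the labels 8 weeks, and mice were 5 weeks old at purchase. CCl4 is turned into a toxic radical by hepatocytes, and repeated dosing scars the liver. With 1 library per condition there was no replicate check, and effects of treatment and of cell preparation cannot be told apart. Expression is given as RPKM, a read number corrected for transcript length and library size, and no value between 0 and 1 RPKM is listed. Gene positions are those of GRCm38.p6, and the submitters' processing notes name the build mm10. The cells had been isolated by perfusion and density gradient, and how many mice each library represents is not given in the sources used here.

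Scar-associated macrophages are macrophages that gather in the fibrous septa of injured liver and are recognized by Trem2, Cd9, Spp1 and Gpnmb. TREM2 is a lipid-sensing receptor of the cell surface that signals through the adaptor TYROBP (DAP12) and the kinase SYK, and cells with active TREM2 turn on genes for lipid uptake, lysosomes and matrix. The same program has been described in lipid-laden macrophages and in microglia, and several of its genes are also expressed by other liver cells, for example Spp1 by bile duct cells.

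Of the 10 genes, 9 were called higher in the CCl4 library. That is, their log2 ratio of CCl4 to oil RPKM was 1 or more with 0.1 RPKM added to each value. Among the 12009 genes at 1 RPKM or more in either library, 15.5% were called higher and 5.25% lower (-1 or less). None of the 10 was lower. A stricter limit of 2 was passed by 5 of the 10, against 2.17% of all genes. Since this contrast served to choose the genes, nothing is read from these shares. The 10 genes had a median of 2.09 on this scale and all genes had 0.32, so the middle of the distribution lay above 0. With both libraries scaled to the median gene, which moves a log2 ratio by 0.30, 7 of the 10 were still called higher, and 8.89% of all genes were. In that scaling 1068 genes were higher and 1101 lower, in place of 1858 and 631.

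**Figure D1:**
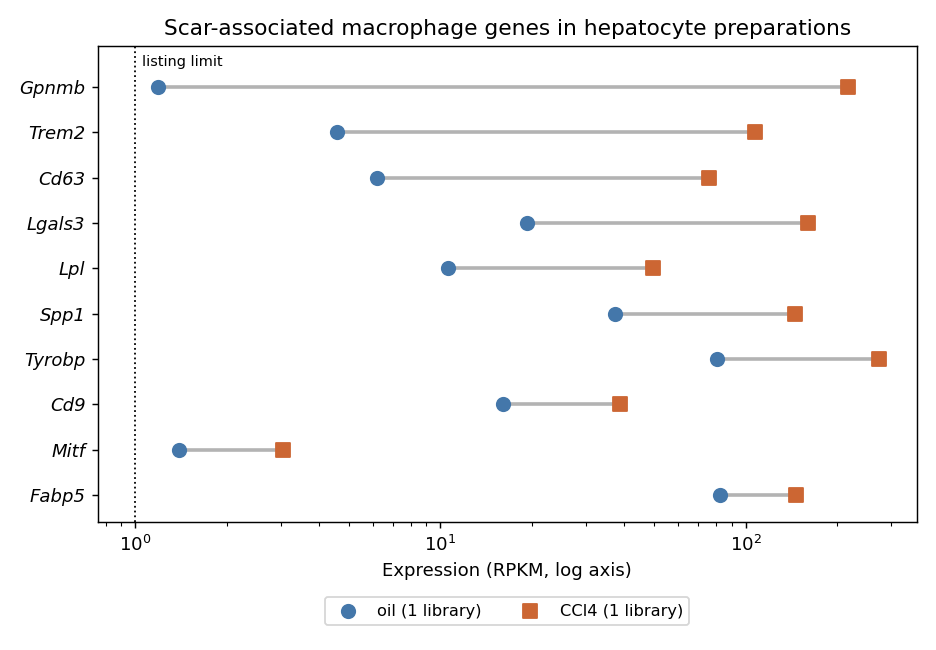
Expression of the 10 genes in the oil library (circles) and the CCl4 library (squares), in RPKM on a log axis, ordered by fold difference, with the dotted line at the lowest value listed. Every gene sits further right in the CCl4 library, and the longest line is that of Gpnmb, from 1.19 to 217.3 RPKM.

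Gpnmb (chr6:49036518-49058182) encodes a transmembrane glycoprotein of lysosomes and melanosomes that phagocytic macrophages produce. It stood at 1.19 RPKM in the oil library and reached 217.3 RPKM in the CCl4 library. The read numbers behind these values were 131 or more and 26677 or more. The ratio was 183, with a 95% counting interval (Clopper-Pearson, exact) of 154 to 219 that leaves out all variation between animals and preparations. The log2 fold change was 7.40, and 6.64 with 1 RPKM added in place of 0.1. Of the 10686 genes listed above 0 in both libraries Gpnmb ranked 1 by log2 fold change, and with a listed 0 taken as 0 there were 3 genes above it, all listed at 0 with oil. By level in the oil library Gpnmb held place 10523 of 12009 and in the CCl4 library place 192. Among the 10 genes it moved from the lowest level to the level below Tyrobp.

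The 5 genes with a mean of at least 1 RPKM whose log2 fold change was nearest to that of Gpnmb, over these 2 libraries and with a listed 0 set to the lowest listed value, were Col1a1, Mmp2, Lum, Trem2 and Col6a3. Col1a1, a chain of type I collagen, had a log2 fold change of 5.39 and so was 2.01 below Gpnmb. Mmp2, a gelatinase, was listed at 0 in the oil library and at 28.2 RPKM in the CCl4 library. Apart from Trem2, these genes are best known from the matrix program of fibroblastic cells.

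The lipid receptor gene Trem2 (chr17:48346401-48352276) was at 4.58 RPKM with oil and at 107.2 RPKM with CCl4, with 290 and 7559 reads or more. The ratio was 23.4 (counting interval 20.8 to 26.4), and its log2 fold change of 4.52 ranked 4 among the genes listed above 0 in both libraries. With a listed 0 taken as 0, 302 genes were above it, 299 of them listed at 0 with oil. The RefSeq transcripts NM_031254 and NM_001272078 of Trem2 gave nearly the same ratio, 23.38 and 23.37. Transcripts of a gene can be counted with the same reads, so they are not independent measurements.

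**Figure D2:**
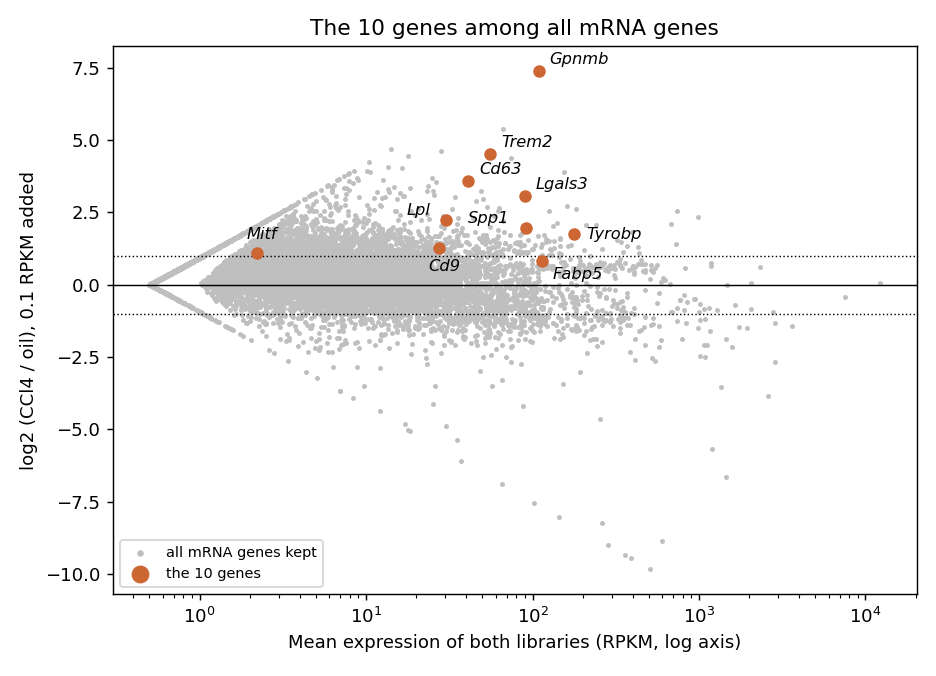
log2 ratio of CCl4 to oil RPKM (0.1 RPKM added) against the mean RPKM of both libraries on a log axis, for all 12009 genes kept (grey) and the 10 genes (orange), with dotted lines at a log2 fold change of 1 and -1. With a listed 0 drawn at the lowest listed value Gpnmb is the highest point at 7.40, Trem2 has 4.52 and Fabp5 lies below the upper dotted line at 0.83.

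Tyrobp (chr7:30413782-30417582), the adaptor that TREM2 needs to signal, had the highest level of the 10 genes in the CCl4 library. It went from 80.5 to 274.4 RPKM, a ratio of 3.41 (counting interval 3.26 to 3.56). Per length, Trem2 RNA amounted to 0.0569 of Tyrobp RNA in the oil library and to 0.391 of it in the CCl4 library. The ratio of receptor to adaptor was thus 6.86-fold higher in the CCl4 library. TYROBP also serves other receptors of myeloid and NK cells.

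Upstream sequence of Gpnmb, Trem2 and Cd63, the 3 genes with the largest ratios, is shown because these genes were higher together. The windows run from 250 bases before to 30 after the start site (RefSeq, GRCm38.p6). They lie at chr6:49036268-49036547 for Gpnmb, at chr17:48346151-48346430 for Trem2 and at chr10:128909095-128909374 for Cd63, all on the plus strand, and the Cd63 window lies inside the span of the gene. Capitals mark matches, on either strand, to TGACTCA (AP-1), CACGTG (E-box), CATGTG (core of the M-box bound by MITF) and GAGGAA (core bound by the myeloid factor PU.1).
Gpnmb: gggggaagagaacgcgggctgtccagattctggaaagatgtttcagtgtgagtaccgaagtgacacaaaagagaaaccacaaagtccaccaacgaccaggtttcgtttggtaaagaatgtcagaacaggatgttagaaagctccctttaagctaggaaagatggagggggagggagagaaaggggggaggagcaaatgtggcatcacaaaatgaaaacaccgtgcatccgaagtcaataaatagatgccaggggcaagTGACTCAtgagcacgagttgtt
Trem2: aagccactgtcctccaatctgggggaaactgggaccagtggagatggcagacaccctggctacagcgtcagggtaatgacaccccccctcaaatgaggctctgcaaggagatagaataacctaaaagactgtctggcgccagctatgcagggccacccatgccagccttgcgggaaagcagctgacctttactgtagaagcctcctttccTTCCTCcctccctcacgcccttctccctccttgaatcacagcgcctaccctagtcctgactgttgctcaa
Cd63: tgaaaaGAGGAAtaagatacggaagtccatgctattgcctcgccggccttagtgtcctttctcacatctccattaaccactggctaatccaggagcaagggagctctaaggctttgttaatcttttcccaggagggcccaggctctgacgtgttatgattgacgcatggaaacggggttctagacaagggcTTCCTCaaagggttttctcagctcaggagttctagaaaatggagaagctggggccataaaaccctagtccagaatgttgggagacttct
The Gpnmb window held an AP-1 match, TGACTCA, from 9 to 15 bases after the start, and 4.94% of 32851 RefSeq windows of this length hold that motif. The Trem2 window held the PU.1 core from -40 to -35 on the opposite strand. The Cd63 window held that core at -244 and, on the opposite strand, at -59, and 26.0% of all windows hold it. Of the other 4 genes with a window, Cd9 had the M-box core at -38 (13.4% of all windows) and Spp1 the PU.1 core at -113 (in the first of its windows), whereas Lgals3 and Mitf had no match. The E-box was in no window of the 7 genes and in 6.79% of all windows. Windows for Tyrobp, Fabp5 and Lpl were not analysed here.

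Cd63 and Cd9 encode tetraspanins, membrane proteins of late endosomes and of the cell surface. Cd63 (chr10:128896231-128912822) was at 6.21 RPKM with oil and at 75.96 RPKM with CCl4, a ratio of 12.2 (counting interval 10.9 to 13.7) with 324 and 4415 reads or more. Its transcripts NM_007653 and NM_001042580 gave ratios of 12.2 and 12.0. Cd9 (chr6:125460266-125494760) was at 16.03 and 38.8 RPKM, a ratio of 2.42 (2.26 to 2.59). The 2 tetraspanins therefore traded places, with Cd9 above Cd63 in the oil library and below it in the CCl4 library. With scaling to the median gene the log2 fold change of Cd9 was 0.97, just under the limit of 1.

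Among 10 further tetraspanins, 3 were called higher and none lower, with a median log2 fold change of 0.62, against 15.5% of all genes higher and a median of 0.32. Tspan3 stood at 3.61 and 16.3 RPKM, and the leukocyte tetraspanins Cd37 and Cd53 had log2 fold changes of 1.38 and 1.02. Scaling to the median gene left Tspan3 and Cd37 past the limit, where 8.89% of all genes were. The remaining members had smaller differences, such as Cd81 with 130.95 and 160.5 RPKM, Cd151 with a log2 fold change of 0.74 and Tspan31 with -0.34.

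Spp1 (chr5:104435111-104441053) encodes osteopontin, a secreted phosphoprotein that binds integrins and CD44 on neighboring cells. It was at 37.4 RPKM with oil and at 145.1 RPKM with CCl4, a ratio of 3.88 (counting interval 3.73 to 4.03). All 5 listed transcripts had ratios from 3.87 to 3.88. None of its relatives Ibsp, Dmp1, Dspp and Mepe reached 1 RPKM in either library. Of the 7 osteopontin receptor genes with a value, 4 were called higher, beside 15.5% of all genes. The integrin subunit gene Itgb5 had a log2 fold change of 1.71, Itga4 1.56, Itgav 1.26 and Cd44 1.12. The others were Itgb1 at 0.89, Itgb3 at 0.86 and Itga9 at 0.65. After scaling to the median gene Itgb5 and Itga4 remained past the limit, where 8.89% of all genes were.

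Bile duct cells are another source of Spp1. Of 8 cholangiocyte genes 3 had a value, and their summed level went from 13.4 to 25.1 RPKM. Genes listed at 0 in both libraries included Sox9, Cldn7, Cftr and Muc1. Krt19 was at 8.86 and 17.8 RPKM. The part of bile duct cells in the Spp1 values was not tested.

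Lgals3 (chr14:47373860-47386167) encodes galectin-3, a sugar-binding protein of macrophages and injured epithelia. Its level was 19.2 RPKM with oil and 160.6 RPKM with CCl4, a ratio of 8.35 (counting interval 7.92 to 8.80) with 1539 and 14322 reads or more. In the galectin family, Lgals1 (galectin-1, abundant in fibroblastic cells) was the other gene past the limit, from 51.8 to 213.8 RPKM. The galectins Lgals9 and Lgals8 had log2 fold changes of -0.56 and -0.57, while Lgals2 had 0.34, Lgals4 0.47 and the galectin-binding protein gene Lgals3bp 0.93. Lgals12 was listed at 0 in both libraries.

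Lpl (chr8:68880555-68906932) encodes lipoprotein lipase, which frees fatty acids from circulating triglyceride and is normally low in adult hepatocytes. It stood at 10.6 RPKM with oil and at 49.9 RPKM with CCl4, a ratio of 4.70 (counting interval 4.50 to 4.92). Of 10 relatives and regulators with a value, none was called higher and 2 were called lower, beside 15.5% and 5.25% of all genes. Their median log2 fold change was -0.16. Hepatic lipase (Lipc) was at 30.4 and 13.5 RPKM, and Apoa5, a secreted activator of lipolysis, at 385.7 and 161.5 RPKM. Gpihbp1, which anchors the lipase on endothelium, was at 108.7 and 187.1 RPKM, and Lipg was listed at 0 in the oil library and at 1.13 RPKM in the CCl4 library. The inhibitors Angptl4 and Angptl8 had log2 fold changes of -0.18 and 0.80, and the lipase cofactor Apoc2 and inhibitor Apoc3 had 0.44 and -0.82. After scaling to the median gene 4 of the 10 were called lower, Apoc3 among them, beside 1101 of all 12009 genes.

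Fabp5 (chr3:10012585-10016610), a fatty acid-binding protein that macrophages and epithelia use, was the only gene of the 10 that did not reach a log2 fold change of 1. It had the highest level of the 10 in the oil library, 82.2 RPKM, and was at 146.4 RPKM in the CCl4 library, a ratio of 1.78 (counting interval 1.69 to 1.87). Fabp5 has near-identical copies in the genome, and how reads shared with them were assigned is not given in the sources used here. In its family Fabp4, the binding protein of fat cells, macrophages and capillary endothelium, was at 34.4 and 84.6 RPKM, and Fabp7 at 8.85 and 19.2 RPKM. The liver form Fabp1 went the other way, from 2301 to 621.2 RPKM, and so did the intestinal form Fabp2, from 18.9 to 5.55 RPKM. Scaling to the median gene lowered Fabp4 to a log2 fold change of 0.99 and Fabp7 to 0.81. Fabp3 and Pmp2 were listed at 0 in both libraries.

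Mitf (chr6:97807002-98021360), a transcription factor of the MiT/TFE family that drives Gpnmb and lysosomal genes in pigment cells and osteoclasts, was low in both libraries. The level was 1.39 RPKM with oil and 3.05 RPKM with CCl4, a ratio of 2.19 (counting interval 1.86 to 2.60) with 197 and 482 reads or more. The 3 listed Mitf transcripts had log2 fold changes from 1.03 to 1.08. The call did not hold under scaling to the median gene (0.79) or with 1 RPKM added to each value (0.76). Its relatives Tfeb, Tfec and Tfe3, singled out after their values were seen, had log2 fold changes of 1.17, 1.04 and 0.35. With scaling to the median gene they had 0.87, 0.74 and 0.05, all under the limit.

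**Figure D3:**
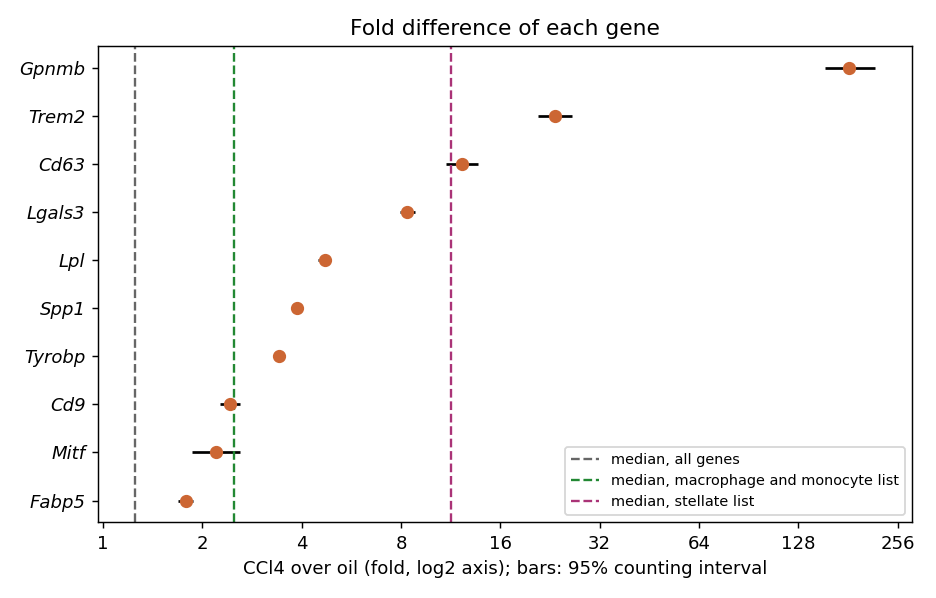
Ratio of the CCl4 to the oil RPKM for each of the 10 genes on a log2 axis, with bars for the 95% counting interval (reads at their lower bound), which leaves out variation between preparations. Dashed lines mark the median of all genes, of the macrophage and monocyte list and of the stellate list, each from values with 0.1 RPKM added. The points of Gpnmb, Trem2 and Cd63, at 183, 23.4 and 12.2, lie beyond all of them. The bar of Cd63, 10.9 to 13.7, crosses the stellate line.

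In order of level, the 10 genes ran in the oil library from Fabp5 and Tyrobp through Spp1, Lgals3, Cd9, Lpl, Cd63 and Trem2 down to Mitf and Gpnmb. Fabp5 (78.8 to 85.6 RPKM) and Tyrobp (77.5 to 83.7 RPKM) overlapped in their exact Poisson counting intervals, as did Mitf (1.20 to 1.60 RPKM) and Gpnmb (0.995 to 1.41 RPKM). In the CCl4 library the order was Tyrobp, Gpnmb, Lgals3, Fabp5, Spp1, Trem2, Cd63, Lpl, Cd9 and Mitf. The intervals of Fabp5 (142.1 to 150.7 RPKM) and Spp1 (142.6 to 147.6 RPKM) overlapped there, and those of the other neighbors did not.

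The 10 genes were next set beside general macrophage genes, since RNA of other liver cells was measured in both libraries. In bulk RNA, fewer cells of a type and less RNA per cell cannot be told apart. Of 20 macrophage and monocyte genes 15 were called higher, beside 15.5% of all genes. The summed level of the list went from 1434 to 4466 RPKM. None of the 20 was listed at 0 in either library. The lysozyme gene Lyz2 was at 321.0 and 1645 RPKM, and the complement genes C1qa, C1qb and C1qc had log2 fold changes of 1.13, 1.33 and 1.31. After scaling to the median gene 11 of the 20 were higher, beside 8.89% of all genes, and Ly6c2 was lower. The median of the list before scaling was 1.32. Measured from that median, Gpnmb was 6.08 further up on the log2 scale, Trem2 3.20, Cd63 2.27, Lgals3 1.74, Lpl 0.90, Spp1 0.63 and Tyrobp 0.45. Cd9, Mitf and Fabp5 were below it, at -0.05, -0.24 and -0.49. The part of macrophage number in the values of the 10 genes was not tested.

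Kupffer cells are the resident macrophages of the liver. Of 11 of their genes 6 were called higher, beside 15.5% of all genes, with a median log2 fold change of 1.10. The summed level went from 968.9 to 1823 RPKM. After scaling 3 of the 11 were past the limit, beside 8.89% of all genes. The scavenger receptor gene Marco went from 42.3 to 277.9 RPKM, Cd5l from 277.6 to 594.6 RPKM and the receptor gene Csf1r from 75.5 to 178.96 RPKM. The Kupffer cell lectin Clec4f had a log2 fold change of -0.15. The other genes not called were Folr2, Cd163, Timd4 and Vsig4, with 0.002, 0.13, 0.38 and 0.57. Per unit of Clec4f RNA, Gpnmb went from 0.00421 to 0.854 and Trem2 from 0.0162 to 0.421. Per unit of Csf1r RNA, which most macrophages carry, Gpnmb went from 0.0158 to 1.21, Trem2 from 0.0607 to 0.599, and Tyrobp from 1.07 to 1.53.

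Of 19 further genes of scar- and lipid-associated macrophages with a value, 13 were called higher in the CCl4 library and none lower. Their median log2 fold change was 1.55, and 11 were past the limit after scaling. Among all genes 15.5% were higher, and 8.89% after scaling. The lysosomal protease genes Ctsd and Ctsb were at 215.3 and 164.3 RPKM in the oil library and at 1258 and 481.0 RPKM in the CCl4 library, and Ctsz had a log2 fold change of 0.95. Apoe, a lipoprotein component that TREM2 binds and that hepatocytes make in bulk, had 0.07. Of this list, Mmp12 (macrophage elastase), Atp6v0d2 (a proton pump subunit of osteoclasts), Ctsk (cathepsin K) and Ms4a7 were listed at 0 in the oil library and at 15.7, 15.5, 13.3 and 13.7 RPKM in the CCl4 library. They are named because of these values. Cd68 had no matching transcript, and Plin2, a lipid droplet gene shared with hepatocytes, had a log2 fold change of -0.26.

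Of 14 genes of TREM2 and TYROBP signalling, 9 were called higher, beside 15.5% of all genes, with a median log2 fold change of 1.20. After scaling 5 were, beside 8.89% of all genes. Syk, the kinase that binds phosphorylated TYROBP, was at 9.30 and 24.2 RPKM. The lipid phosphatase gene Inpp5d, the exchange factor gene Vav1 and the phospholipase gene Plcg2 had log2 fold changes of 1.29, 1.19 and 1.12. Hcst (DAP10), the other adaptor of TREM2, was at 3.59 and 5.63 RPKM. Of the other receptors that use TYROBP or resemble TREM2, Trem1 was at 1.15 RPKM in the oil library and listed at 0 in the CCl4 library. Trem3 had a log2 fold change of 0.01, and Clec5a was listed at 0 in both. Treml2 was listed at 0 with oil and at 2.01 RPKM with CCl4, and Treml4 had a log2 fold change of 0.99.

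Of 19 genes of the MiT/TFE family and of lysosomes, many of them targets of these factors, 7 were called higher and none lower. Their median log2 fold change was 0.81, and scaling left 3 higher. The shares of all genes higher were 15.5% and, after scaling, 8.89%. Psap, the precursor of the saposins, went from 255.2 to 1099 RPKM, and Grn, which encodes progranulin, from 78.1 to 181.0 RPKM. The membrane protein gene Lamp1 had a log2 fold change of 0.56, and the autophagy receptor gene Sqstm1 had -0.58. Pmel, the relative of Gpnmb in pigment cells, was listed at 0 in both libraries. The heparan sulfate proteoglycan gene Sdc4, whose product binds GPNMB, went from 230.9 to 62.5 RPKM.

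**Figure D4:**
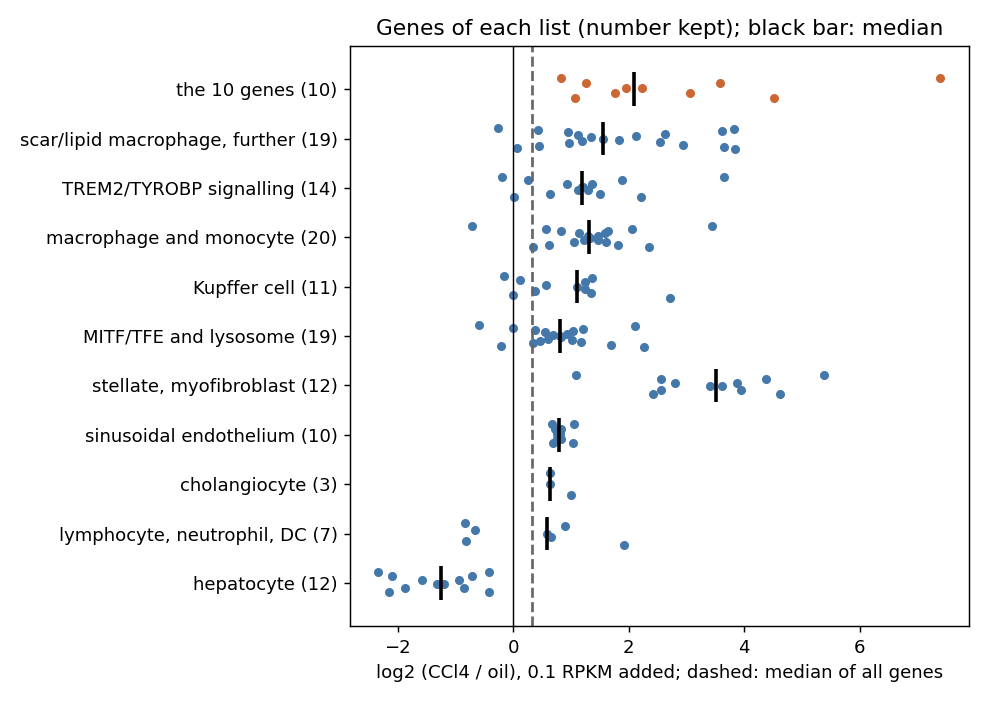
log2 ratio of CCl4 to oil RPKM (0.1 RPKM added) for the genes of 11 lists, each point a gene, with black bars at the list medians, a dashed line at the median of all genes and the number of genes kept in brackets. The 10 genes have a median of 2.09 and the widest range, stellate genes a median of 3.51 and hepatocyte genes a median of -1.25.

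Genes of other liver cells were counted in the same way. All 12 stellate cell and myofibroblast genes were called higher and 11 were after scaling, beside 15.5% and 8.89% of all genes. Their summed level went from 84.5 to 968.4 RPKM. Pdgfrb was listed at 0 in the oil library and Col1a1 went from 3.02 to 130.5 RPKM. Of the sinusoidal endothelial genes 2 of 10 were past the limit (median 0.79, summed level 662.8 and 1144 RPKM), and after scaling none was, beside 15.5% and 8.89% of all genes. The endothelial lectin Clec4g was at 238.0 and 379.8 RPKM. Among 7 lymphocyte, neutrophil and dendritic cell genes with a value, 1 was called higher, beside 15.5% of all genes. After scaling 1 was higher and 2 were lower, beside 1068 and 1101 of all 12009 genes. The summed level of these 7 genes went from 287.2 to 173.9 RPKM. Their median log2 fold change was 0.59, but it turned to -0.66 without Flt3 and Ms4a1, which were listed at 0 with oil. The neutrophil genes S100a9 and S100a8 had log2 fold changes of -0.83 and -0.81. Cd3e, Cd8a, Ncr1 and Xcr1 were listed at 0 in both libraries.

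The labelled cell type was present in both libraries, with albumin (Alb) at 8656 RPKM with oil and 6476 RPKM with CCl4. Of 12 hepatocyte genes 7 were called lower and none higher, beside 5.25% and 15.5% of all genes. Their summed level went from 24026 to 12950 RPKM. The log2 fold changes ran from -2.33 to -0.42, the latter for Alb, and Apoa1, Ahsg and Ttr had -1.31, -0.86 and -0.71. After scaling to the median gene 10 of the 12 were called lower, beside 1101 of all 12009 genes. The depth recovered from the RPKM steps was 57992570 reads for the oil library and 64655548 for the CCl4 library. The parts of stellate, endothelial and hepatocyte RNA in the values of the 10 genes were not tested.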

How the data were processed

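RNA-seq of primary hepatocytes from oil-injected and CCl4-injected mice was used, 1 library each. The submitters' processing notes name CASAVA 1.4, TopHat2 and the build mm10. The counting program and the annotation are not given in the sources used here. The deposited mRNA values are RPKM, made by the authors from reads, transcript length and library size, and none between 0 and 1 is listed. The deposited read counts of new lncRNAs, with lengths in bases and RPKM, are whole numbers without normalization. The authors' own fold change, p-value and q-value columns were not used.

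RefSeq identifiers were matched to symbols through GRCm38.p6 (27045 of 27457 transcripts), and each gene took the values of its most abundant transcript (mean RPKM of both libraries). Genes at 1 RPKM or more in at least 1 library were kept, and a listed 0 was set to the lowest listed value, 1.00035 RPKM, which understates the fold. A call needed an absolute log2 fold change of 1 with 0.1 RPKM added. No test was made, for want of replicates. Cd68, Ms4a4a and Ly6g had no match, and some genes of the lists are not reported here by name. The members, lists and measures were chosen with earlier results of these data known. Genes named are the 10, some or all of the 4 most abundant of each list, relatives of a member, and the 5 nearest to Gpnmb. Hcst, Trem1, Trem3, Treml2, Treml4, Clec5a, Plin2, Ly6c2, Pdgfrb, Flt3 and Ms4a1 were named after their values were seen. So were Folr2, Cd163, Timd4, Vsig4 and genes listed at 0.

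Reads per library were recovered from RPKM steps of lncRNA-table genes shorter than 400 bases (whole reads within 0.02 and rounding in 215 of 222 and 229 of 237 genes). The shortest length giving whole reads in both libraries then gave reads as lower bounds. Checked on 1397 new lncRNAs, these reads matched the deposited counts exactly in 83.4% and exceeded none. The new lncRNAs had other library totals, 62438201 reads for oil and 70960851 for CCl4. The totals used for mRNA genes, 57992570 for oil and 64655548 for CCl4, were lower. The check on new lncRNAs did not test these mRNA totals, and why the totals differ was not tested. Intervals (95%; Clopper-Pearson for ratios, exact Poisson for levels) cover counting error only. The scripts were tested on simulated data. Alternatives were the pseudocount, scaling, filter, fold limit, treatment of listed zeros and choice of transcript. Python 3.11.15, numpy 2.4.6, pandas 2.3.3, scipy 1.17.1 and matplotlib 3.10.9 were used.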

Additional observations from a re-analysis of the deposited data

How the results depend on the processing

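No paired analysis was possible because each condition had 1 library. Recovered reads and the requirement of 1 RPKM in both libraries were chosen after seeing the data. Of 490 values under alternatives, 405 stayed within the tolerance (1.5 times for a count, the counting interval's half-width for a log2 value, its median over the 10 genes for a list), and 85 moved. The sign turned in 2, both for the median of lymphocyte, neutrophil and dendritic cell genes, which was 0.59 and became -0.66 with 1 RPKM required in both libraries and -0.74 at 5 RPKM. With a listed 0 taken as 0, 2689 genes were called higher. Each of the 10 genes kept a positive log2 fold change under every alternative that retained it. The number called higher was 9 in the main setting, 7 with scaling to the median gene and 8 with 1 RPKM added. With the limit set at a log2 fold change of 2, 5 of the 10 genes, 261 genes higher and 94 lower passed, with 1 Kupffer, 2 lysosomal, 2 signalling, 8 further scar macrophage and 3 macrophage and monocyte genes. Scaled to the median gene, 1068 genes were higher and 1101 lower, with 3 Kupffer, 3 lysosomal and 5 signalling genes higher, a Gpnmb log2 fold change of 7.09 and a median of 1.79 for the 10 genes. With 1 RPKM added, Gpnmb had 6.64 and 1224 genes were higher. At 5 RPKM or more, which drops Mitf, the median of the 10 genes was 2.22. Stricter limits lower the counts by construction, and why the remaining values moved was not tested. The level of Gpnmb in the oil library, 1.19 RPKM, lies close to the listing limit, so its ratio depends on what is added.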

Other observations

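The genes next to Gpnmb and Trem2 were looked up after the values had been seen, as the 3 protein-coding neighbors on either side in GRCm38.p6. Beside Gpnmb on chromosome 6, Doxl1, Doxl2, Svs1 and Igf2bp3 were listed at 0 in both libraries. Malsu1, which begins 15.6 kb after the end of Gpnmb, was at 13.2 RPKM with oil and 9.30 RPKM with CCl4, and Tra2a was at 10.3 and 10.1 RPKM. Around Trem2 on chromosome 17, the paralogue Treml4 was at 8.86 and 17.7 RPKM, a log2 fold change of 0.99, and Treml2 was listed at 0 with oil and at 2.01 RPKM with CCl4. B430306N03Rik was at 5.22 and 9.31 RPKM, and Treml1 was listed at 0 in both libraries. Nfya, a subunit gene of a general transcription factor, was at 3.04 and 6.50 RPKM, and Oard1 at 6.70 and 5.59 RPKM. No neighbor of Gpnmb reached a log2 fold change of 1, and of those of Trem2 Nfya did, with 1.07. Treml2 had 0.94 with its listed 0 set to the lowest listed value, which understates its fold.

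In all, 1162 of the 12009 genes were listed at 0 in the oil library and at 1 RPKM or more in the CCl4 library, and 161 were listed the other way round. The chemokine receptor gene Cx3cr1 of monocyte-derived macrophages was listed in both libraries, but at 1.002 RPKM with oil and 11.8 RPKM with CCl4, and the dendritic and macrophage integrin gene Itgax was at 1.25 and 10.2 RPKM. Cx3cr1 had the highest log2 fold change of the 20 macrophage and monocyte genes, of which 15 were called higher. Ccr2 of that list had 1.06, and Cd14, Plac8 and Ly6c2 had 0.56, 0.34 and -0.70. All of these genes were chosen for mention after their values were seen.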
